A study of Arabidopsis thaliana with 84 samples.

Results

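Serine carboxypeptidase-like (SCPL), beta-glucosidase (BGLU), carboxylesterase (CXE) and SKU5-similar (SKS) genes were followed across the roots of Arabidopsis thaliana on Affymetrix ATH1 arrays. Members were all probe sets assigned to 1 gene whose symbol in the platform annotation starts with SCPL, BGLU, CXE or SKS and a digit, in either case. The rule found 55 of the 22810 probe sets, 29 SCPL, 20 BGLU, 3 CXE and 3 SKS. A further 3 probe sets named for 2 genes each (scpl36 with scpl37, BGLU21 with BGLU22, and scpl39 with a gene of no such name) were left out. All 55 members matched a RefSeq gene of assembly TAIR10.1, and for all 55 its names gave the same family. Symbols are spelled as in the platform annotation, which writes some in lower case.

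Serine carboxypeptidases cut amino acids from the carboxyl end of proteins, and several of the plant SCPL proteins instead transfer acyl groups from glucose esters to other metabolites. Beta-glucosidases of the BGLU family remove glucose from stored glucosides, among them glucosinolates, coumarins, flavonols and the glucosides of lignin precursors. In Arabidopsis roots some of them are packed in ER bodies, compartments that release enzyme when cells are wounded. CXE proteins hydrolyse esters and share their fold with the gibberellin receptors, and SKS proteins resemble multicopper oxidases and are named after SKU5, a cell wall and membrane protein needed for straight root growth.

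All plants were Col-0 lines, 12 days old, grown in liquid culture with ammonium succinate as the only nitrogen, and 3 arrays were made for each of 28 groups. Roots received 5 mM KCl as control or 5 mM KNO3 for 2 h, and cells freed with wall-digesting enzymes were then separated by fluorescence-activated sorting. The sort gave 5 populations: LRC for the lateral root cap, EpiC for epidermis with cortex, EndoP for endodermis with pericycle, Peri for the pericycle and Stele for the stele. Each population has a KCl group, a continuous nitrate group, in which KNO3 stayed in the digestion solution, and a transitory one, in which it did not. Peri also has KCl with 1 mM methionine sulfoximine (MSX, an inhibitor of glutamine synthetase), nitrate together with MSX, and both with 5 mM glutamine added. The 3 treatments were repeated on unsorted protoplasts and on whole roots incubated without enzymes, while roots frozen directly had KCl or KNO3 for 2 h or 3.5 h. The labels name neither the reporter lines behind the sort nor how many plants went into a sample. Nothing in them says what a shared replicate number marks.

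Values are log2 signals per probe set, and a difference of 1 is a doubling or halving of signal. RNA from sorted cells went through two-cycle labelling and RNA from protoplasts and roots through one-cycle labelling, so the 54 and the 30 arrays were tested apart. After quantile normalization of the 54 sorted arrays, 48 members passed the filter on low signal, and 41 passed in the one-cycle arrays. Mean array signal, on the unlogged scale, was 169 to 372 in the sorted arrays and 71.2 to 84.7 in the one-cycle arrays kept. Of the one-cycle arrays, 3 of incubated roots and 1 of 2 h roots were left out, because they correlated with the rest at a median r under 0.7. Incubated roots in KCl were thereby left with 1 array, and incubated roots in continuous nitrate and 2 h roots in KCl with 2 each. Replicate 1 of LRC in continuous nitrate and replicate 1 of EndoP in transitory nitrate stood apart among the sorted arrays, with median correlations of 0.652 and 0.53, and were kept.

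The labelled populations were checked against markers. RCPG, the root cap polygalacturonase, was the 1 of 5 listed root cap markers with a probe set that was tested, and it was higher in LRC by 2.08 on the log2 scale (adjusted p = 1.43e-07, limma). EXPA7 and EXPA18, expansins of root hair cells, went against the labels: both were higher in EndoP than in the other populations, by 1.49 and 0.68, and EXPA7 was lower in EpiC, by a difference of -1.31. Of the 3 cortex markers tested, AED3 was higher in EpiC (1.01, adjusted p = 0.00197), JKD was higher in Peri (0.84, adjusted p = 0.013) and CO2 was higher in LRC (0.39, adjusted p = 0.00628). The endodermal receptor kinase gene GSO1 was higher in EndoP (0.58) and in Peri (0.74). LBD16, a gene of lateral root founder cells in the pericycle, was higher in EndoP (0.84) and had a difference of 0.54 in Peri (adjusted p = 0.0563), while the stele gene LHW had one of 0.34 in Stele (adjusted p = 0.332). Populations are therefore called by their labels only.

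Members differed widely among the sorted populations. In the KCl arrays the limma F test over the 5 populations called 30 of the 48 tested members at an adjusted p under 0.05, against 41.1% of all 19258 probe sets tested. In the nitrate arrays it called 35 of 48, against 57.5% of all. Of these calls 27 were shared, which is 90.0% of the KCl calls and 77.1% of the nitrate calls. The families were first noticed in the KCl arrays, so the KCl count and results that pool KCl with nitrate are no independent support. The highest and the lowest of the 5 population means lay a median of 1.15 apart on the log2 scale over the members and 0.84 over all probe sets tested. That range exceeded 2 in 13 members and in 9.04% of all probe sets tested. LRC had the highest mean of the 5 populations in 23 of 48 members (47.9%) and in 24.9% of all probe sets. The population with the highest mean was the same in all 3 treatments in 27 members (56.2%), against 21.0% of all probe sets.

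The main pattern was a rise in LRC, which reached all 4 families. Against the mean of the other 4 populations over the same 3 treatments, 31 of 48 members were called in LRC, against 43.6% of all probe sets tested. Of these, 23 were higher in LRC, where 20.3% of all probe sets were higher, and 8 were lower, where 23.4% of all were lower. Of the SCPL, BGLU, CXE and SKS genes tested, 11 of 28, 9 of 15, 1 of 3 and 2 of 2 were higher. All these counts include the KCl arrays in which the families were first noticed, so they are no independent support of a rise. The BGLU count includes BGLU41, which passed the filter on low signal only through LRC arrays. The median LRC difference was 0.42 over the 48 members and -0.04 over all probe sets tested. Sorted populations are bulk samples, in which more cells of a type and more transcript per cell cannot be told apart. Markers of green tissue moved with this pattern: 3 of 4 were higher in LRC (LHCB4.1 by 0.95, PSAE-1 by 0.93 and LHCB4.2 by 0.61), 3 of 4 in EpiC, and 4 of 4 were lower in Stele. Their summed unlogged signal was 469 to 2056 in the LRC arrays, 384 to 4252 in EpiC, 292 to 874 in EndoP, 386 to 1597 in Peri and 226 to 360 in Stele. Their part in the result was not tested. Of the 31 calls, 21 passed under every one of 9 alternative settings and with any 1 of the 45 arrays left out. The other 10 were the lower calls of scpl30, CXE16, scpl35, scpl46, scpl50, SCPL43 and BGLU15 and the higher calls of SCPL49, BGLU46 and BGLU33.

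**Figure D1:**
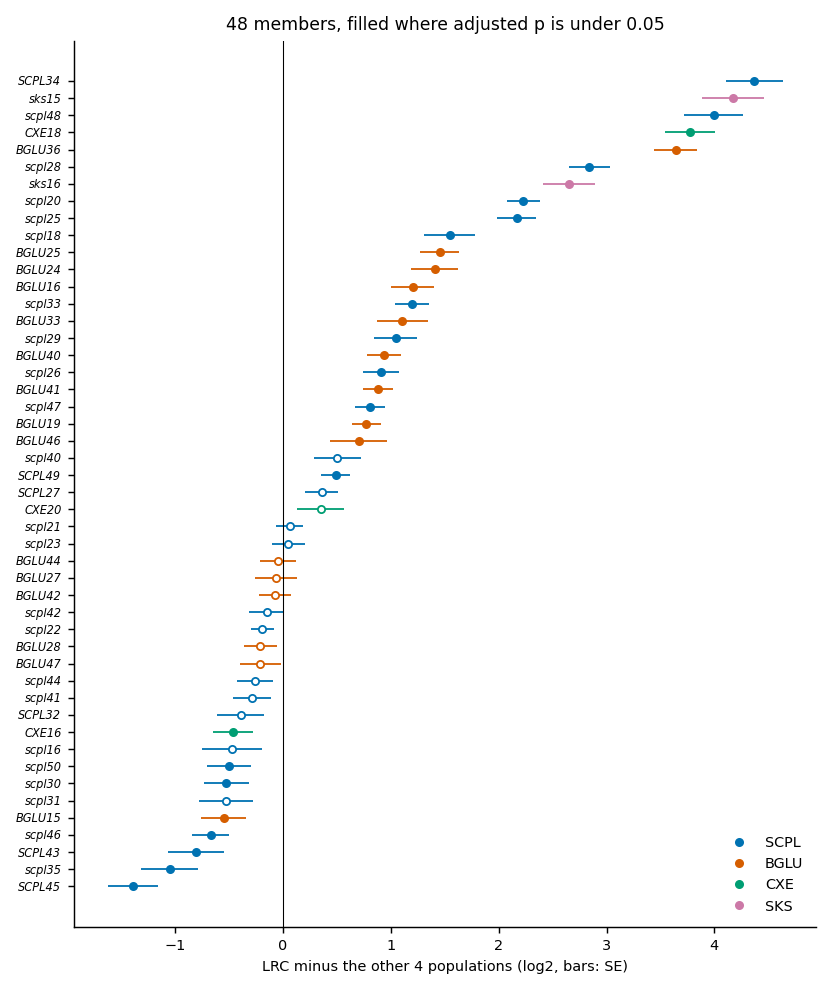
Difference of LRC from the mean of the other 4 sorted populations on the log2 scale (x axis) for the 48 tested members (y axis), coloured by family; bars are 1 standard error (SE) of the limma fit to 54 arrays, and filled points passed an adjusted p of 0.05. The 9 members above 2 come from all 4 families, and SCPL45 has the lowest value, -1.39.

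In 9 members all 9 LRC arrays lay above all 36 arrays of the other populations, a pattern found in 0.691% of all probe sets tested. They were SCPL34, scpl48, scpl28, scpl20, scpl25, BGLU36, CXE18, sks15 and sks16. SCPL34, scpl48, scpl28, BGLU36, CXE18 and sks15 were set as leading members with earlier results of these data known, so their p-values are no independent support of a high LRC level.

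SCPL34, a carboxypeptidase-like gene, had the largest LRC difference of the 48 members. Its signal in LRC ran from 10.10 to 11.85 with a median of 10.58, and in the other 36 arrays from 5.42 to 8.82 with a median of 6.22. Replicate 2 was the highest LRC array in each treatment, at 11.68 in KCl, 11.85 in transitory and 11.71 in continuous nitrate, and the other 6 lay between 10.10 and 10.62. The mean difference was 4.37 (SE 0.26, adjusted p = 1.64e-17, limma, 9 arrays against 36), or 20.7-fold. The lowest LRC array was still 1.28 above the highest array from elsewhere, replicate 1 of EndoP in continuous nitrate.

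Both tested SKS genes rose in LRC. In sks15 the LRC arrays ran from 8.54 to 11.64 (median 10.52) and the others from 5.32 to 8.45 (median 6.07), so that only 0.09 separated the closest arrays. The lowest LRC array was replicate 1 in continuous nitrate, the array that stood apart, and the 3 highest were again replicate 2 of each treatment, at 11.64, 11.48 and 11.64. Its mean difference was 4.17 (SE 0.29, adjusted p = 1.05e-15, limma), 18.1-fold. In sks16 the LRC arrays ran from 10.53 to 12.05 (median 11.48) and the others from 6.56 to 10.06 (median 8.97). The highest of the others was again replicate 1 of EndoP in continuous nitrate. The sks16 difference of LRC was 2.66 (SE 0.24, adjusted p = 3.43e-12), 6.3-fold.

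Among the carboxylesterase genes, CXE18 rose in LRC and the other members did not. CXE18 signal was 11.14 to 11.94 in LRC (median 11.57) and 6.22 to 10.09 elsewhere (median 7.37). EpiC came next, with 8.26 to 9.58, and Peri and Stele had medians of 7.24 and 6.87. The LRC difference was 3.78 (SE 0.23, adjusted p = 2.75e-17), 13.7-fold, and CXE18 was also higher in EpiC, by 0.77 (SE 0.23, adjusted p = 0.00951). CXE16 was lower in LRC, by a difference of -0.46 (adjusted p = 0.0407), and CXE20 had an LRC difference of 0.35 that did not pass.

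The carboxypeptidase-like scpl48 had high signal in the outer populations and low signal in the inner ones. It read 11.97 to 12.87 in LRC (median 12.49), 9.70 to 10.93 in EpiC (median 9.89) and had medians of 7.93 in EndoP, 7.44 in Peri and 7.94 in Stele. The LRC difference was 3.99 (SE 0.27, adjusted p = 1.02e-15), 15.9-fold, and the EpiC difference 1.06 (SE 0.27, adjusted p = 0.00315). In scpl28 the LRC arrays ran from 7.93 to 10.33 and all others from 5.44 to 7.58. Its LRC difference was 2.84 (SE 0.19, adjusted p = 6.33e-16). The genes scpl20 (2.23, SE 0.15) and scpl25 (2.17, SE 0.18) had EpiC as their second population, and their closest LRC and EpiC arrays lay 0.18 and 0.14 apart.

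BGLU36 was the beta-glucosidase with the largest LRC difference. Its LRC arrays ran from 9.20 to 10.73 (median 10.01), and EpiC followed with 6.18 to 7.71 (median 7.08). Medians in EndoP, Peri and Stele were 6.04, 5.85 and 5.98, near the limit of 6.49 used in the filter on low signal. The LRC difference was 3.64 (SE 0.20, adjusted p = 1.41e-18), 12.5-fold, the smallest p of any member in that comparison.

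**Figure D2:**
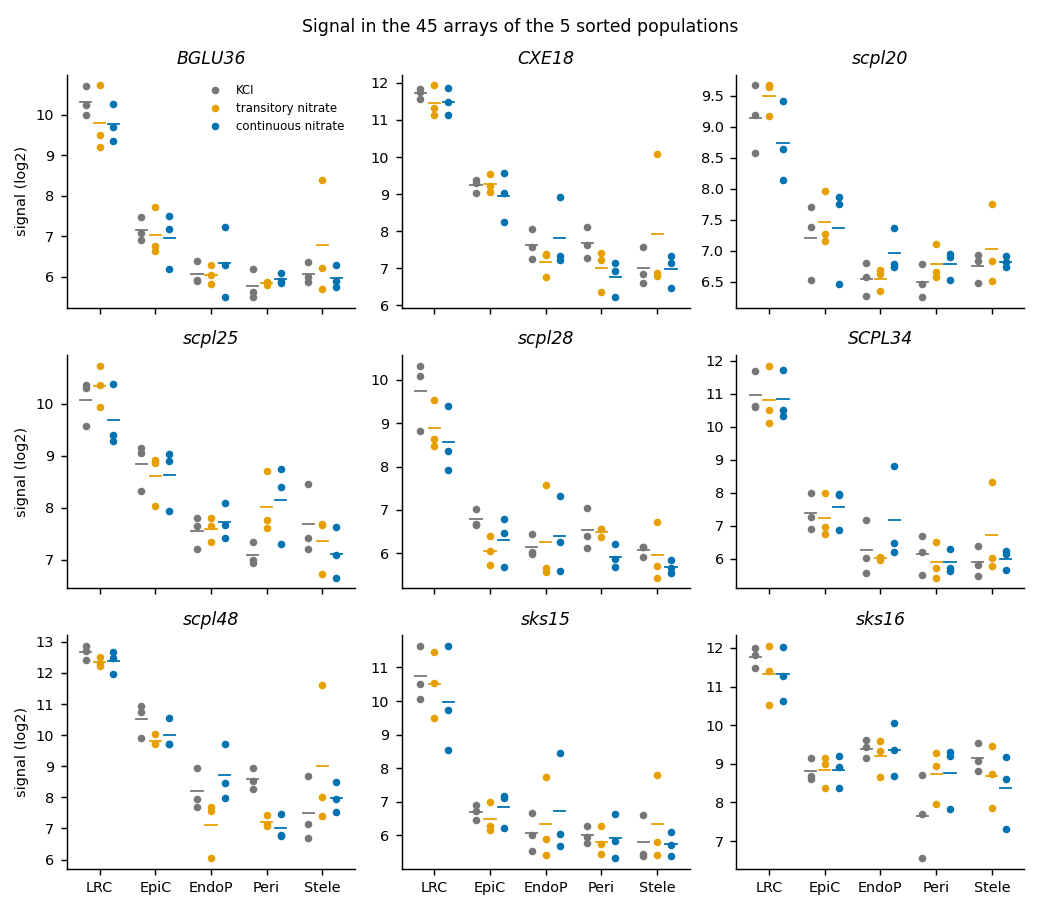
Log2 signal (y axes) of the 9 members whose LRC arrays all lay above the other arrays, by sorted population (x axis); each point is 1 array, colours are treatments and short lines are means of 3 arrays. The high CXE18 point in Stele, at 10.09, is replicate 2 in transitory nitrate, and the high SCPL34 point in EndoP, at 8.82, is replicate 1 in continuous nitrate.

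LRC had the highest mean of the 5 populations in each of the 3 treatments in all 9. This follows from how the 9 were picked and is no further result. In SCPL34 the LRC means were 10.96 in KCl, 10.82 in transitory and 10.85 in continuous nitrate. In CXE18 they were 11.72, 11.47 and 11.49, and in BGLU36 10.32, 9.81 and 9.77, in the same order. The widest spread of treatment means among the 9 was in scpl28, from 9.74 in KCl to 8.56 in continuous nitrate. None of the 9 passed the test for a nitrate effect within LRC, which called only 0.0156% of all probe sets tested. Against the other populations under the same treatment, LRC was higher by 3.97, 4.06 and 3.95 in scpl48 and by 4.60, 4.25 and 3.67 in sks15, in KCl, transitory and continuous nitrate.

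Outside LRC, 2 arrays were high in these members. Replicate 2 of Stele in transitory nitrate was the highest of the 36 other arrays in BGLU36 (8.40), CXE18 (10.09) and scpl48 (11.60). Replicate 1 of EndoP in continuous nitrate was the highest in SCPL34 (8.82), sks15 (8.45) and sks16 (10.06). RCPG, the root cap marker, read 8.12 and 7.16 in those arrays, the highest value of Stele and of EndoP, where the medians were 5.70 and 6.07, against a median of 8.41 in LRC. The part of root cap cells in this was not tested. Without both arrays the LRC difference was 4.51 for SCPL34, 3.91 for CXE18 and 3.75 for BGLU36. Both arrays were picked because they were high in these members, so a larger difference without them was fixed in advance.

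Other carboxypeptidase-like genes rose less in LRC. Of 28 SCPL genes tested, 11 were higher in LRC, against 20.3% of all probe sets, and 6 lower, which is near the 23.4% of all. Next to the 5 named above, scpl18 (1.54), scpl33 (1.20), scpl29 (1.04), scpl26 (0.91), scpl47 (0.80) and SCPL49 (0.49) were higher, and SCPL49 is the Arabidopsis gene that RefSeq names after the vacuolar carboxypeptidase Y of yeast. The genes scpl26 and scpl28 lie next to each other on chromosome 2 (assembly TAIR10.1), and their group means over the 15 groups of the 5 populations correlated at r = 0.812, a description over shared arrays. Of other neighbours with both genes tested, scpl22 with scpl23 and BGLU16 with BGLU27, correlated at 0.346 and -0.054. Lower in LRC were SCPL45 (-1.39), scpl35 (-1.05), SCPL43 (-0.81), scpl46 (-0.67), scpl30 (-0.52) and scpl50 (-0.50).

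Most beta-glucosidase genes were higher in LRC. Of 15 BGLU genes tested, 9 were higher in LRC and 1 lower, against 20.3% and 23.4% of all probe sets tested. The median difference was 0.78 over these genes and -0.04 over all probe sets tested. After BGLU36 came BGLU25 (1.46), BGLU24 (1.41), BGLU16 (1.20), BGLU33 (1.11), BGLU40 (0.94), BGLU41 (0.88), BGLU19 (0.78) and BGLU46 (0.70). BGLU41 was tested only because LRC arrays passed the filter on low signal, so its place among the 9 is no independent support of a rise. BGLU24 read 7.74 to 8.82 in LRC and 5.25 to 8.37 in Stele, where its median was 5.76, so it was also the beta-glucosidase member with the largest fall in Stele, -1.49 (SE 0.22, adjusted p = 2.71e-06). BGLU15, which splits flavonol glycosides, was lower in LRC (-0.55, adjusted p = 0.0324).

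**Figure D3:**
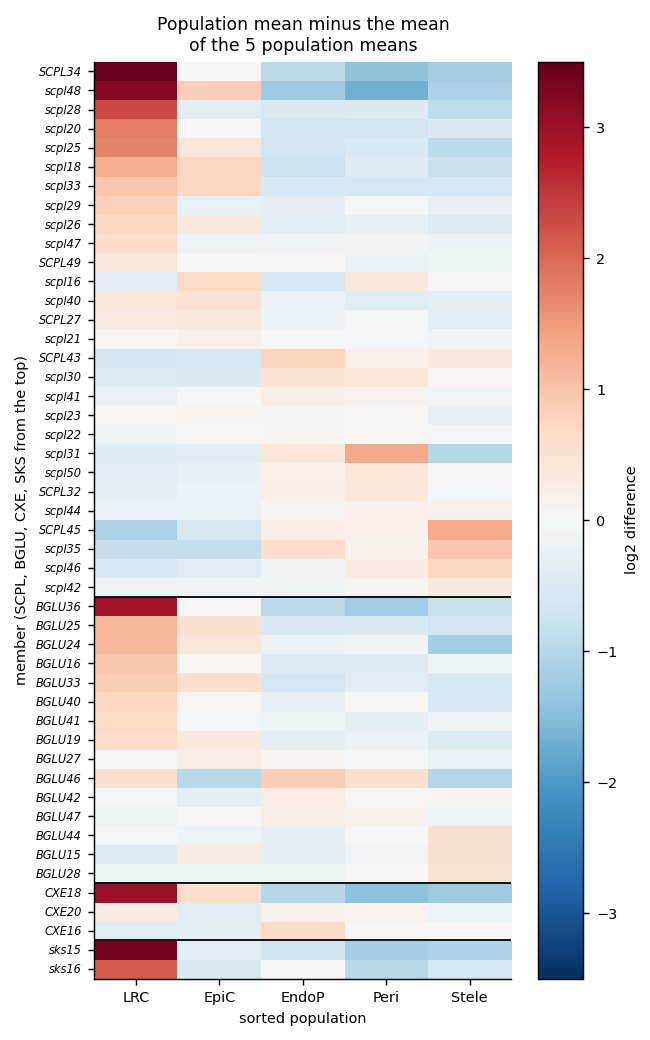
Mean log2 signal of each tested member (rows, grouped by family and ordered by the population with the highest mean) in each sorted population of 9 arrays (columns), minus the mean of its 5 population means. Red is above that mean and blue below; the largest deviations are red in the LRC column, while SCPL45 and scpl35 are red in Stele, scpl31 in Peri and BGLU46 in EndoP.

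Fewer members were high in the inner populations, and their shares were near or below those of all probe sets. In Stele, 26 members were called (all probe sets: 22.2%), 6 of 48 higher, near the 11.1% of all, and 20 lower (11.1%). Of the 26 calls, 11 passed under every alternative and with any 1 array left out, among the higher ones only SCPL45 and scpl35. SCPL45 read 8.28 to 10.25 in Stele (median 9.73), against medians of 7.13 in LRC and 7.57 in EpiC. Its Stele difference of 1.62 (SE 0.23, adjusted p = 2.18e-06) was the largest rise there, and its lowest Stele array overlapped with EpiC, EndoP and Peri. The others were scpl35 (1.18, SE 0.27, adjusted p = 0.00105), scpl46 (0.91), BGLU44 (0.65), BGLU15 (0.65) and BGLU28 (0.64). BGLU28, known for its induction in sulfur-starved plants, is the neighbour of BGLU15 on chromosome 2, and the pair correlated at r = 0.603 over the 15 group means.

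All 9 members with separate LRC arrays were lower in Stele, from CXE18 (-1.55) to scpl20 (-0.59). The Stele calls of scpl48, scpl25, scpl20 and sks16 did not pass under every alternative and with any 1 array left out. The other 11 were BGLU24, BGLU46 (-1.28), scpl31 (-1.23), scpl18, BGLU25, scpl33, BGLU40, BGLU33, scpl26, BGLU19 and SCPL27 (-0.50). Since each population was compared with the mean of the others, a high LRC level lowers the difference of every other population. Medians show the order directly: scpl31 had its lowest median in Stele (4.93) and its highest in Peri (7.30).

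In Peri, 13 members were called (8.35% of all probe sets tested), 1 higher, no more than the share of all (3.57%), and 12 lower (4.79%). The higher one was scpl31, with signal from 6.15 to 8.34 in Peri, 5.17 to 7.92 in EndoP and 4.66 to 5.27 in Stele. Its Peri difference was 1.67 (SE 0.25, adjusted p = 5.62e-06), and it passed under every alternative and with any 1 array left out. Peri and Stele arrays of scpl31 did not overlap, while Peri and EndoP arrays did. The 12 lower members were scpl48 (-2.09), SCPL34, CXE18, BGLU36, sks15, sks16, scpl20, scpl33, scpl25, BGLU25, scpl28 and BGLU41 (-0.44). Of these only BGLU36 and scpl20 passed under every alternative and with any 1 array left out.

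EndoP had 21 calls (38.6% of all), 5 higher, below the share of all (18.7%), and 16 lower (19.8%). With array signal as a covariate the count was 11, and with KCl or nitrate arrays alone 12 in each. BGLU46, which with its neighbour BGLU45 acts on glucosides of lignin precursors, read 8.58 to 10.85 in EndoP (median 10.18), 7.93 to 10.88 in LRC (median 10.26), and had medians of 8.18 in EpiC and 7.87 in Stele. Its EndoP difference was 1.09 (SE 0.27, adjusted p = 0.0015), and its EpiC and Stele differences were -1.21 and -1.28. The other higher members were SCPL43 (0.96), CXE16 (0.83), scpl35 (0.78) and scpl30 (0.60), and of these 5 only CXE16 passed under all 8 alternatives. The 16 lower members were scpl48 (-1.59), CXE18, BGLU36, SCPL34, scpl18, sks15, scpl25, scpl20, scpl16, BGLU33, BGLU25, scpl33, scpl28, BGLU16, scpl26 and BGLU19 (-0.42). Where LRC was high, its level lowers the EndoP difference here too.

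EpiC had 21 calls (33.6% of all), 12 higher (16.5%) and 9 lower (17.0%). All 12 but 3 were also higher in LRC, and the 3 were scpl16 (0.86), scpl40 (0.62) and SCPL27 (0.46). The 9 lower members were BGLU46 (-1.21), scpl35 (-1.09), SCPL43, SCPL45, sks16, scpl30, scpl28, scpl46 and BGLU42 (-0.42). A high LRC level lowers the EpiC difference of scpl28 and sks16. The scpl28 mean in EpiC, 6.39, was second to that in LRC, 9.06. The sks16 mean in EpiC, 8.83, was above those in Peri (8.38) and Stele (8.73). In scpl33 LRC and EpiC had medians of 7.43 and 7.22 and overlapped, while EndoP, Peri and Stele had medians between 5.76 and 5.85. Its EpiC difference of 0.91 (SE 0.16, adjusted p = 3.37e-05) was the only EpiC call that passed under every alternative. With KCl arrays alone EpiC had 1 call, and with array signal as a covariate 6.

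Relatives of the members that carry other names were looked up from a list. PYK10, the main beta-glucosidase of root ER bodies, had a mean of 11.46 in LRC, 10.38 in EpiC and 7.33 in Stele, with a difference of 2.24 in LRC (adjusted p = 2.34e-07) and -2.92 in Stele (adjusted p = 8.53e-09). Its listed partners went the same way. All 4 that were tested of 19 listed, the ER body regulator NAI1 (1.35), the ER body protein NAI2 (1.44) and the jacalin-related lectins JAL22 (2.77) and JAL33 (2.74), were higher in LRC, all 4 were higher in EpiC and all 4 were lower in Stele. SKU5 itself had an LRC difference of 0.16 (adjusted p = 0.601), in contrast to sks15 and sks16. Of 19 listed multicopper oxidases 3 were tested, LPR1, LPR2 and LAC16. LPR1, which acts as a ferroxidase in root tips, was lower in LRC (-1.76, adjusted p = 8.59e-11), and of the gibberellin receptor genes GID1A was lower there (-0.67) while GID1B and GID1C did not pass.

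No member passed the test for nitrate averaged over the populations. Continuous nitrate against KCl, averaged over the 5 populations, called 0 members (0.452% of all probe sets tested), with 4 members at an unadjusted p under 0.05. Transitory nitrate called 0 (0.296% of all), with 3 at an unadjusted p under 0.05. The smallest p in both belonged to BGLU40, with a difference of -0.58 (adjusted p = 0.0696) and -0.44 (adjusted p = 0.468). The test for a nitrate effect that differs among populations called 0 members (0.0156% of all), with 10 at an unadjusted p under 0.05 and the smallest adjusted p, 0.0607, for CXE20. On the values as deposited that test called 9 members. For a treatment check 12 nitrate-responsive genes were listed, and 6 were tested, HHO1, HHO2, HHO3, PGD1, PGD2 and PGD3. Of these, 4 rose in continuous nitrate over the 5 populations. The list was chosen with earlier results of these data known, so the check is not independent.

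BGLU40 fell with nitrate in EpiC. Its EpiC signal was 8.32, 6.97 and 7.06 in KCl, 6.29, 6.82 and 5.77 in transitory nitrate and 6.21, 6.47 and 5.94 in continuous nitrate. All 6 nitrate arrays lay below all 3 KCl arrays, a separation found in 3.30% of all probe sets. The EpiC difference was -1.20 (SE 0.29, adjusted p = 0.0322), the 1 member called there (0.597% of all). As deposited it did not pass, nor with only the 9 EpiC arrays in the fit, nor with any of 6 of the 9 arrays left out. In LRC the gene read 8.34, 7.53 and 8.77 in KCl and 6.41 to 7.47 in the 6 nitrate arrays, without overlap as in 1.41% of all, with a difference of -1.29 (SE 0.29) that did not pass (adjusted p = 0.133). In Peri its nitrate and KCl arrays overlapped. CXE20 was the other member whose LRC arrays did not overlap, with nitrate above KCl.

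In LRC, EndoP and Stele alone 0 members passed the nitrate test (0.0156%, 0% and 0.0363% of all probe sets). At an unadjusted p under 0.05 there were 3, 0 and 4 members. In EndoP the member with the smallest p, scpl21, had an adjusted p of 1, and in Stele that was BGLU42, a glucosidase of coumarin glucosides, with a difference of -0.83 (adjusted p = 0.248).

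Peri gave 9 nitrate calls, against 23.3% of all probe sets tested, so the share of members called was below the background. Of the 6 nitrate-responsive genes of the treatment check, 0 passed in Peri, with a median difference of -0.11. CXE20 (1.86), SCPL32 (1.29), scpl30 (1.07), scpl41 (1.00), scpl25 (0.99) and scpl47 (0.75) were higher in nitrate (12.4% of all were), and scpl16 (-1.71), scpl48 (-1.47) and scpl50 (-1.17) lower (10.9%). Mean array signal was 177 to 372 in the 6 Peri nitrate arrays and 173 to 177 in the 3 KCl arrays. With array signal as a covariate 0 of the 9 passed, and also 0 with only the 9 compared arrays in the fit or without replicate 1 or 3 of KCl. As deposited, where the median probe set rose by 0.38 instead of falling by 0.14, 18 members passed and 17 of them were higher.

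The CXE20 signal in Peri was 6.85, 8.43 and 7.49 in KCl, 9.94, 9.53 and 7.66 in transitory nitrate and 10.05, 10.07 and 9.45 in continuous nitrate. Every continuous nitrate array was above every KCl array, while replicate 3 in transitory nitrate was within the KCl range. SCPL32 had the same pattern, with 5.79, 6.56 and 6.13 in KCl, 8.09, 6.81 and 6.26 in transitory and 8.38, 8.16 and 7.01 in continuous nitrate. The scpl48 arrays did not overlap, as in 17.7% of all probe sets: KCl read 8.95, 8.26 and 8.52, and the 6 nitrate arrays 6.74 to 7.46. For scpl16 the KCl arrays read 6.54, 10.31 and 5.43, of which replicate 2 alone lay above all nitrate arrays. Without it the scpl16 difference was -0.27 and did not pass.

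**Figure D4:**
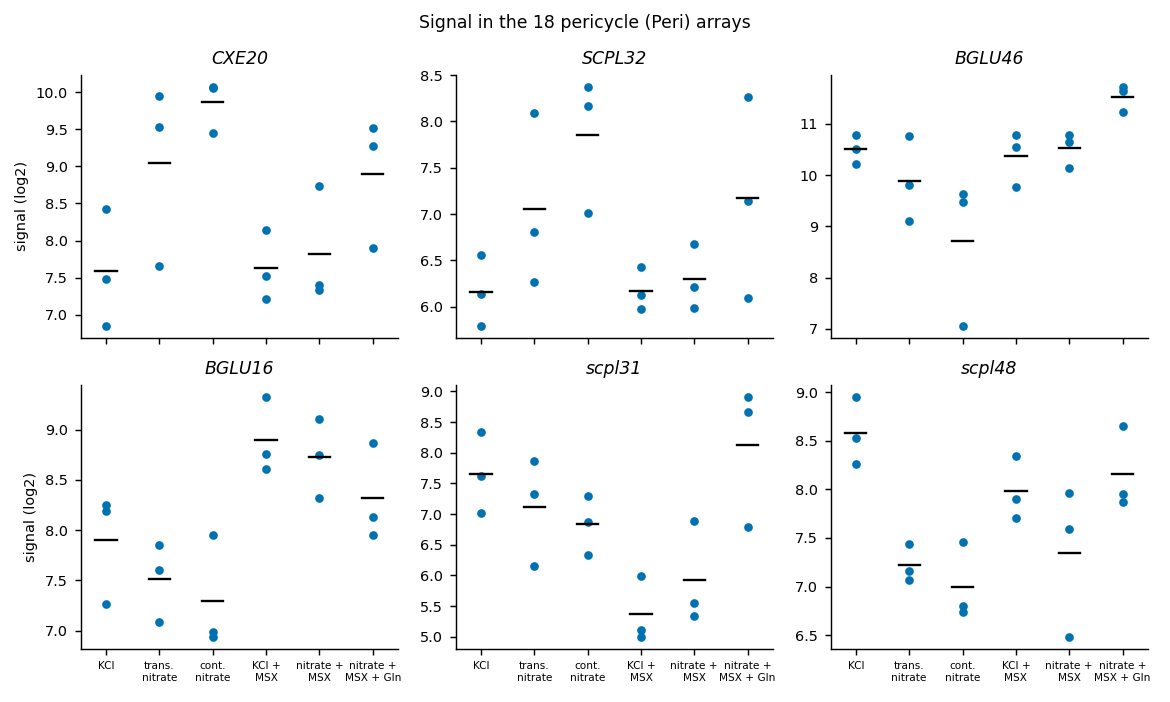
Log2 signal (y axes) of 6 members in the 18 Peri arrays by treatment (x axis; MSX, methionine sulfoximine; Gln, glutamine); points are arrays and lines are means of 3. CXE20 and SCPL32 are higher in continuous nitrate than in nitrate with MSX without overlap. In KCl, scpl31 is lower with MSX than without it, while its arrays in nitrate with MSX overlap with those in continuous nitrate.

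MSX in the presence of nitrate changed 4 of 48 members in Peri, 8.33% against 9.08% of all probe sets tested, so the share of members was no higher than the background. CXE20 was lower with MSX, at 7.33, 8.74 and 7.40, by a difference of -2.04 (SE 0.47, adjusted p = 0.00617), and SCPL32, at 5.99, 6.68 and 6.22, by -1.55 (SE 0.47, adjusted p = 0.0332). BGLU46 was higher, at 10.64, 10.14 and 10.79 with MSX against 9.64, 9.47 and 7.06 without (1.80, SE 0.58, adjusted p = 0.0439). BGLU16 was higher as well, at 9.10, 8.32 and 8.74 against 6.94, 6.99 and 7.95 (1.43, SE 0.44, adjusted p = 0.0333). In all 4 the arrays with and without MSX did not overlap, as in 27.7% of all probe sets. Because this comparison uses the same continuous nitrate arrays as the nitrate effect in Peri, the changes of CXE20 and SCPL32 in both are not independent. None of the 4 passed with array signal as a covariate, with only the 6 compared arrays in the fit or without replicate 1 of nitrate with MSX; array signal was 205 to 372 without MSX and 175 to 289 with it.

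In KCl, MSX called 0 members (0.0675% of all), with 5 at an unadjusted p under 0.05. The smallest adjusted p was that of scpl31, 0.0893: its arrays read 8.34, 7.02 and 7.62 in KCl and 5.11, 5.99 and 5.00 with MSX, a difference of -2.29 (SE 0.55) without overlap (19.4% of all). CXE20 and SCPL32 read 7.22 to 8.14 and 5.97 to 6.42 in KCl with MSX, within the range of KCl alone. BGLU16 read 9.32, 8.75 and 8.61 in KCl with MSX and 7.27, 8.20 and 8.25 in KCl alone, also without overlap, and did not pass. The BGLU46 arrays in KCl with and without MSX overlapped. Whether the MSX effect differs between KCl and nitrate was not tested. With MSX present, nitrate called 0 members (0% of all), and 0 at an unadjusted p under 0.05; BGLU15 had the smallest p (-0.76, adjusted p = 1).

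Glutamine added to nitrate and MSX called scpl31 alone among the members (0.696% of all). Its arrays read 5.33, 5.55 and 6.88 with MSX and 6.78, 8.91 and 8.66 with MSX and glutamine, so that 1 array of each group overlapped. The difference was 2.20 (SE 0.55, adjusted p = 0.0414), and it did not pass with only the 6 compared arrays in the fit or without any 1 of 4 of them. BGLU46 with glutamine read 11.73, 11.64 and 11.23, and the difference did not pass. They were the 3 highest of the 18 Peri arrays.

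Protoplasts were compared with whole roots on the one-cycle arrays. Digestion and RNA extraction method (columns for cells, TRIzol for roots) differ together there and cannot be told apart. Treatment lasted 2 h before digestion or incubation, and 3.5 h in the directly frozen roots compared here. How closely the total times match was not tested. Against whole roots at 3.5 h, 15 of 41 members were called (28.3% of all 17152 probe sets tested), 9 higher (13.0%) and 6 lower (15.3%). The members with the largest rise were sks15 (1.74, SE 0.30, adjusted p = 3.04e-04), sks16 (1.46, SE 0.29), SCPL34 (1.18, SE 0.23), BGLU36 (1.03, SE 0.18) and scpl18 (1.00, SE 0.16). The others that were higher were SCPL27 (0.77), scpl40 (0.64), scpl25 (0.41) and scpl42 (0.34).

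In sks15 the 6 protoplast arrays ran from 5.37 to 8.36 and the 6 root arrays from 5.01 to 5.41, so 1 protoplast array overlapped. That array, replicate 3 in KCl, was also the lowest of the 9 protoplast arrays in sks16 (5.97) and SCPL34 (5.27) and the highest in scpl31 (6.55) and BGLU46 (7.45). BGLU36 had medians of 6.17 in protoplasts and 5.11 in roots, with 5.27 as the lowest protoplast and 5.18 as the highest root array, and scpl18 had 5.48 to 6.69 and 4.80 to 5.11, both without overlap, as in 11.9% of all. Lower in protoplasts were scpl31 (-1.31, SE 0.34, adjusted p = 0.00651), BGLU46 (-1.06), scpl50 (-0.66), BGLU24 (-0.63), scpl46 (-0.37) and scpl33 (-0.31). The scpl50 arrays did not overlap, with 5.97 to 6.48 in protoplasts and 6.64 to 7.12 in roots.

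**Figure D5:**
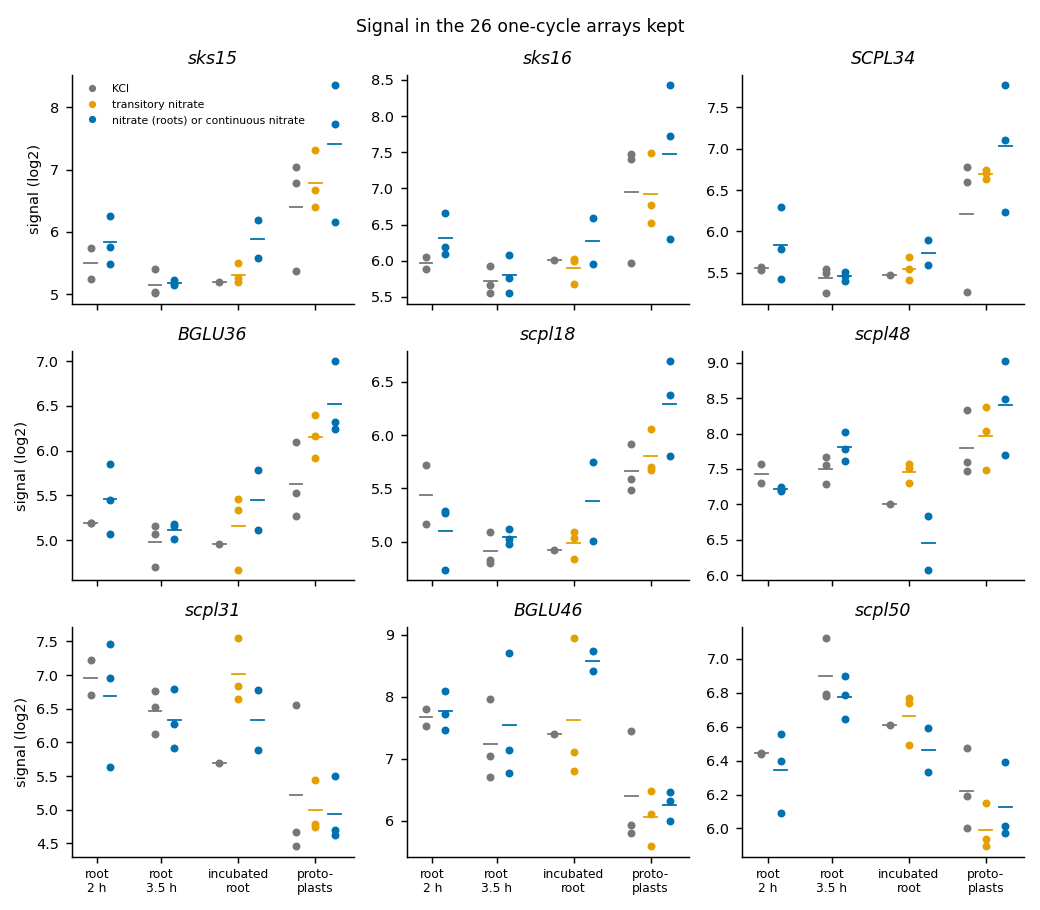
Log2 signal (y axes) of 9 members in the 26 one-cycle arrays kept (x axis: whole roots frozen after 2 h and 3.5 h, whole roots incubated without enzymes, and unsorted protoplasts); points are arrays, colours are treatments and lines are group means, of which incubated KCl roots have 1 array. The top 2 rows are higher in protoplasts than in 1 or both kinds of root compared and the bottom row is lower than in both.

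Against roots incubated without enzymes, 18 members were called (25.3% of all), 11 higher (14.8%) and 7 lower (10.5%). Higher were sks15 (1.40), scpl16 (1.12), scpl48 (1.08, SE 0.20, adjusted p = 8.43e-04), SCPL34 (1.06), sks16 (1.06), BGLU36 (0.92), scpl18 (0.83), SCPL45 (0.53), SCPL49 (0.51), SCPL27 (0.48) and scpl20 (0.46). Lower were BGLU46 (-1.62, SE 0.36, adjusted p = 0.00312), scpl31 (-1.30), BGLU24 (-0.83), scpl50 (-0.47), BGLU40 (-0.44), scpl30 (-0.38) and scpl33 (-0.29). Both comparisons use the KCl and continuous nitrate protoplast arrays, so their lists are not independent. Protoplast and incubated root arrays overlapped in each of the 41 members tested, while 2.1% of all probe sets did not overlap. Incubated roots in KCl had 1 array in this comparison. Of the 23 members higher in LRC, 21 were tested on the one-cycle arrays, and 6 of them were higher and 3 lower in protoplasts than in 3.5 h roots, where 13.0% of all probe sets were higher and 15.3% lower. Against incubated roots 8 were higher and 4 lower, where 14.8% and 10.5% of all were. PYK10 was lower in protoplasts than in 3.5 h roots by a difference of -2.45, and NAI1, JAL22 and JAL33 were lower too.

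Within protoplasts and whole roots nitrate called 0 members (0% of all probe sets in each of the 3 tests). At an unadjusted p under 0.05 there were 3 in protoplasts, with BGLU36 first (0.71, adjusted p = 0.637), and 0 in whole roots at 2 h, where scpl47 came first (0.37), and at 3.5 h, where BGLU16 did (0.29), both at an adjusted p of 1. Whole roots at 3.5 h differed from those at 2 h in 3 members (2.80% of all), all higher: scpl20 (0.57, SE 0.14, adjusted p = 0.035), scpl33 (0.43, adjusted p = 0.0456) and scpl50 (0.44, adjusted p = 0.0482). The scpl20 arrays read 6.43 to 6.94 at 3.5 h and 5.81 to 6.24 at 2 h, without overlap (8.85% of all). With all 30 one-cycle arrays 0 members passed, and with any 1 of the 11 compared arrays left out at most 1 did.

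Some members gave little or no signal. In the sorted arrays 7 did not pass the filter, BGLU29, BGLU31, BGLU32, BGLU43, BGLU45, scpl38 and sks18, and 6 of them were below the limit of 6.49 in all 54 arrays. The third SKS gene, sks18, passed the limit in 2 arrays and reached 8.63. In the one-cycle arrays these 7 and BGLU27, BGLU28, BGLU33, BGLU41, BGLU47, scpl21 and scpl44 did not pass the limit of 5.50 in 3 arrays. Of the 48 members tested in the sorted populations, 10 were called in neither F test, BGLU27, BGLU47, SCPL32, SCPL49, scpl21, scpl22, scpl23, scpl41, scpl42 and scpl44.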

How the data were processed

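The deposited values are log2 signals per probe set, made by the authors from 84 ATH1 arrays. The software and normalization behind them are not given in the sources used here, and the scale was inferred from a range of 0 to 14.46. Groups were taken from titles and descriptions, because the source name calls every EpiC sample continuous. Array medians spanned 1.04 among the 54 two-cycle arrays, which were quantile normalized here, and 0.458 among the 30 one-cycle arrays, of which 26 were used as deposited. The 64 Affymetrix controls were left out, and a probe set was tested if at least 3 arrays exceeded the 40th percentile of its protocol's values. Array signal is the mean of unlogged values after trimming 2% at each end. Models with a coefficient per group over all arrays of a protocol were fitted in limma 3.58.1 (R 4.3.3; eBayes with trend; two-sided), with Benjamini-Hochberg adjustment over all probe sets tested and a threshold of 0.05. The code was tested on simulated data.

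The members, lists and comparisons were chosen with earlier results of these data known. Every member called is named, or, where none was, the member with the smallest p. Alternatives covered normalization, the filter, the arrays in the fit, array signal as a covariate, a replicate block, each array left out in turn, and KCl or nitrate arrays alone. Chosen after seeing the data were array signal as a covariate in 2 Peri comparisons, and leaving out 2 sorted arrays high in LRC members or 1 more incubated array. The number of arrays limits precision, and the p-values measure only the spread between these samples, which the titles call biological replicates. Figures were drawn with matplotlib 3.10.9.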

Additional observations from a re-analysis of the deposited data

How the results depend on the processing

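Of 146 recomputed counts of called members under settings other than leaving out 1 array, 124 stayed within 1.5 times the reported count and 22 did not. With array signal as a covariate the counts were 6 for EpiC and 11 for EndoP against the other populations, and 0 for nitrate and 0 for MSX in nitrate in Peri. With KCl arrays alone they were 1 for EpiC, 12 for EndoP, 7 for Peri and 16 for Stele, and with nitrate arrays alone 9 for EpiC and 12 for EndoP, fits with fewer samples. As deposited, nitrate by population had 9 calls, nitrate in EpiC 0 and nitrate in Peri 18. With only the compared arrays in the fit, nitrate in EpiC, nitrate in Peri, MSX in nitrate and glutamine each had 0. Without the 2 sorted arrays that stood apart, nitrate by population and MSX in KCl each had 1. With all 30 one-cycle arrays, protoplasts against 3.5 h roots had 9 and roots at 3.5 h against 2 h had 0, and after quantile normalization the latter had 1. For the remaining moved counts the cause was not tested.

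Leaving out 1 array at a time, the LRC count ran from 27 to 33 and the count in EpiC from 9, without replicate 2 of EpiC in transitory nitrate, to 23. It ran from 0 to 1 for continuous nitrate over the 5 populations and for nitrate in LRC, EpiC and Stele, from 0 to 5 for nitrate by population, from 0 to 15 for nitrate in Peri, from 0 to 4 for MSX in nitrate, from 0 to 1 for glutamine, and from 0 to 1 for roots at 3.5 h against 2 h. The nitrate difference of scpl30 in Peri turned to -0.22 with array signal as a covariate, and that of scpl47 in roots at 2 h to -0.25 with all 30 arrays.

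Replicate numbers were not taken to pair the samples, since nothing in the labels says what they mark and only 25 of 45 same-numbered pairs within a population had deviations that correlated over 0.1. The median was 0.125 (-0.535 to 0.73) for the same number and -0.086 for different numbers, so some sharing by number is not excluded. With the number as a block the LRC count was 33, MSX in nitrate 5, protoplasts against 3.5 h roots 17 and against incubated roots 17, and no count moved by over 1.5 times.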
